A study of Mus musculus with 22 samples.

Results

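The mouse carboxylesterase family was followed as single genes across hepatoblastoma and liver. The 10 genes described are Ces1b, Ces1c, Ces1d, Ces1e, Ces1f, Ces1g, Ces2a, Ces2c, Ces3a and Ces3b, found by symbol among the 36555 genes of the RNA table. All 10 passed the filter on low values and were among the 17953 genes tested. The table held 20 rows with a carboxylesterase symbol in all; the other 10 are given after the members.

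The study switched YAP1, a growth-promoting co-activator of transcription, on and off in mouse hepatoblastoma, an embryonal liver cancer, and followed the tumor cells after the switch. RNA was sequenced from 4 tumors with YAP1 on (YAP1 ON tumors), from 4 tumors with YAP1 off for 6 days (day 6 tumors), from liver of 3 hbHep mice (days 121, 114 and 117) and from liver of 3 FAH mice. Going by the series' title, hbHep are read here as hepatocyte-like cells that arose from tumor cells; how much of each liver sample they made up was not measured. Both tumor groups carry Tg(CAG-rtTA3)4288Slowe/J on the B6N.FVB(Cg) background, in which a doxycycline-dependent activator is made from the broadly active CAG promoter; the day 6 tumors were off doxycycline and the YAP1 ON tumors on it. All 4 tumors of a group bear the same mouse code, so an effect of the mouse and of YAP1 cannot be told apart. The p-values use a spread pooled over the 4 groups, so a wide spread in 1 group widens the errors of every comparison. The tumors add to it only differences between tumors of 1 mouse. The hbHep mice and the FAH livers share the genotype FAH Delta Exon 5, which removes the last enzyme of tyrosine breakdown; the livers came from mice given NTBC, which inhibits that pathway upstream of the missing enzyme, and the labels name no NTBC for the hbHep mice. Ages are not in the labels, and the FAH samples are also labeled as hepatocytes although the protocol gives liver tissue. RNA came from whole pieces of tissue, so fewer hepatocytes and less RNA per hepatocyte cannot be told apart in any result below.

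The targeted gene went with the labels. The row of Yap1 held 1248, 1163, 1163 and 1095 in day 6 tumors, against 5263, 9763, 7842 and 10748 in YAP1 ON tumors, with hbHep at 1127 ± 186 (SD, n = 3) and FAH liver at 1266 ± 116 (SD, n = 3). Hepatocyte markers (12 genes, among them Alb, Apoa1 and Ttr) had sums of 352810 to 592459 in the YAP1 ON group, 855109 to 1105320 at day 6, 847726 to 1217710 among hbHep mice and 1871800 to 2341810 among FAH livers, and none was at 0. Not every marker followed these sums. Alb averaged 35181 at day 6 against 47376 in YAP1 ON tumors, and Apoa1 averaged 80924 in hbHep against 99825 in YAP1 ON tumors. At day 6, 7 of the 12 were called higher than in YAP1 ON tumors and 0 lower (background 12.8% higher, 10.8% lower). The 4 Y-linked genes in the table had sums of 3344 to 4935 among hbHep mice and 4596 to 6048 among FAH livers, but of 237 to 248 in day 6 tumors and 198 to 288 in YAP1 ON tumors. Sex and strain therefore cannot be told apart from the difference between tumors and the other groups, while all 3 hbHep mice lay with the FAH livers.

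Carboxylesterases are serine hydrolases, mostly held in the lumen of the endoplasmic reticulum, that cut esters, amides and thioesters. In hepatocytes they activate or clear ester drugs and hydrolyze stored triglyceride and other neutral lipids, and 1 member, Ces1c, is secreted into mouse plasma. The mouse genes arose by tandem duplication. All 10 lie on chromosome 8 (RefSeq, GRCm38.p6), the Ces1 genes between positions 93056725 and 93337209 and the Ces2 and Ces3 genes between positions 104734003 and 105093929. Because kallisto divides reads among similar transcripts by estimation, the value of a single member is uncertain where its neighbors share sequence. How alike the transcripts are was not measured. The promoter windows, which lie mostly before the start site, were compared, and this does not bear on the division of reads. Over these windows, the longest run of letters in common was 58 bases, between Ces1b and Ces1c. Every other pair with an entry shared at most 11 bases.

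All 10 genes rose in the day 6 tumors relative to YAP1 ON tumors, against 12.8% of all tested genes called higher and 10.8% called lower in that comparison. In hbHep relative to YAP1 ON tumors, 9 rose and 1, Ces1c, fell (background 28.8% higher, 26.3% lower). Between hbHep and day 6 tumors, Ces1f, Ces1g and Ces2c were higher in hbHep and Ces1b, Ces1c and Ces1d were lower. These shares were near the background (24.1% higher, 21.7% lower). Relative to FAH liver, 9 were lower in hbHep and 1, Ces2c, was higher (background 17.1% lower, 19.9% higher). Day 6 tumors had 9 members lower than FAH liver and 0 higher (background 31% lower, 31.6% higher), and YAP1 ON tumors likewise had 9 lower and 0 higher (background 33.5% lower, 34.4% higher); Ces1c was the member not called in both. Here a gene counts as changed when its limma p-value, adjusted over all genes tested, is under 0.05.

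The members' median log2 fold changes were 2.18 in day 6 tumors over YAP1 ON tumors (all genes tested 0.02), 2.55 in hbHep over YAP1 ON tumors (all genes -0.02) and -0.22 in hbHep over day 6 tumors (all genes -0.02). Over FAH liver they were -2.41 in hbHep (all genes -0.01), -2.50 in day 6 tumors (all genes 0.03) and -4.52 in YAP1 ON tumors (all genes 0.04). These comparisons share samples, so they are not independent of each other.

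**Figure D1:**
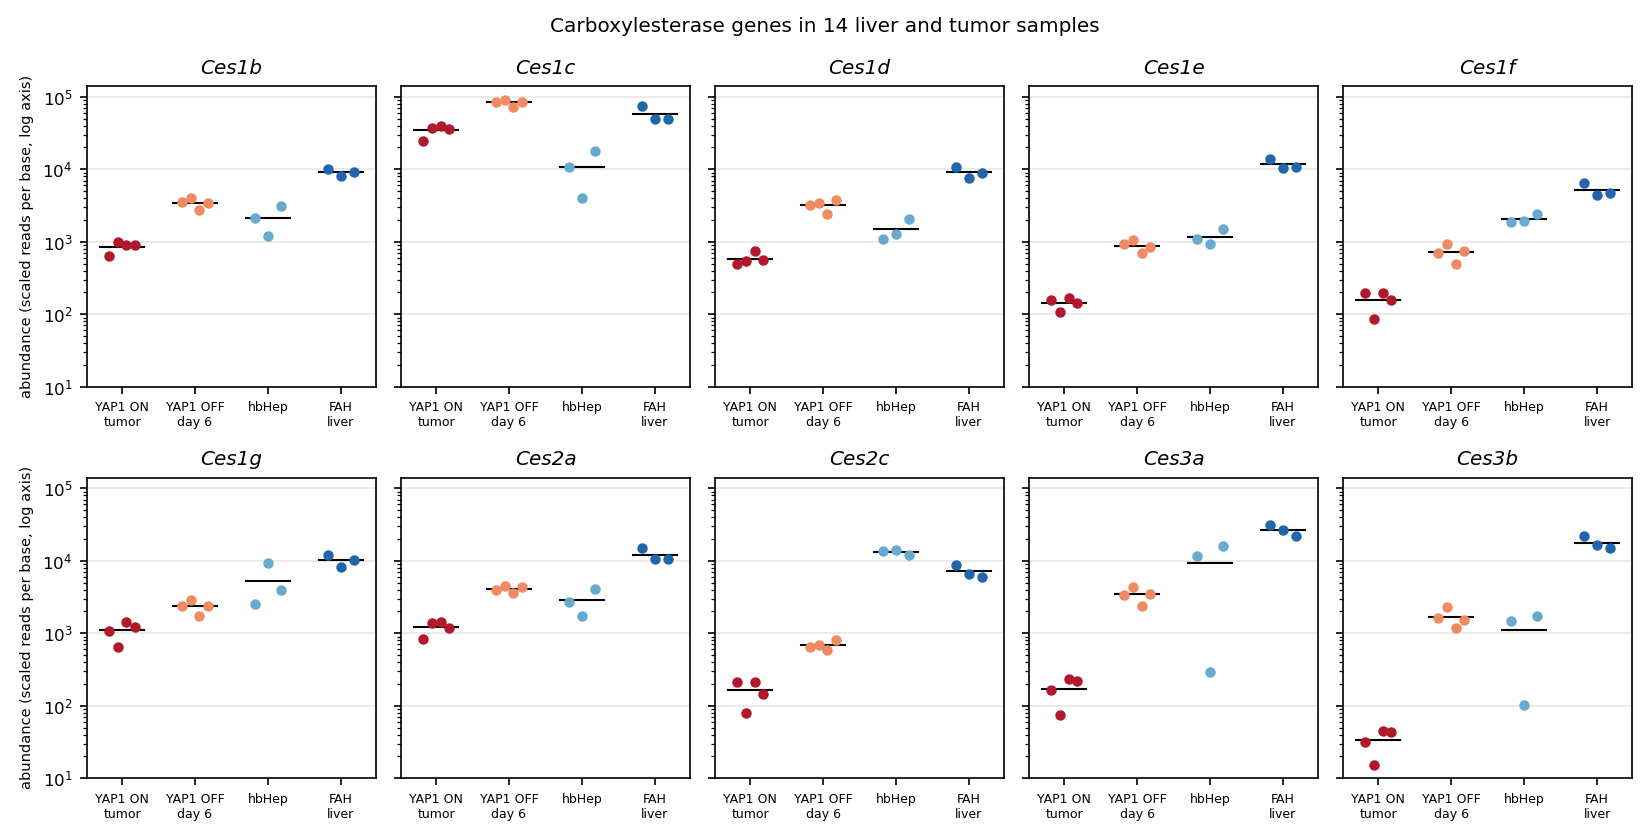
Abundance (scaled reads per base, log axis) of each of the 10 genes in 4 YAP1 ON tumors, 4 day 6 tumors, 3 hbHep mice and 3 FAH livers; points are samples and bars are group means. Every gene lies higher in the day 6 tumors than in the YAP1 ON tumors, and Ces3a and Ces3b have 1 hbHep mouse far below the other 2.

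Abundance below is the deposited value in scaled reads per base, rescaled between samples. This unit is how the deposited values are read here. A value in it is divided by transcript length, so on this reading levels of different genes can be set side by side. Samples of a group are given in the order of their numbers in the labels.

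Ces1c, which encodes the carboxylesterase secreted into mouse plasma, was the most abundant member in the tumors and FAH liver, and the only one that fell in hbHep below YAP1 ON tumors. Its abundance was 84719.6, 91389.6, 73188 and 85367 in day 6 tumors, against 24953, 37063, 39665 and 35941 in YAP1 ON tumors. The groups did not overlap, and Ces1c was 2.46-fold higher in day 6 tumors (log2 fold change 1.30 ± 0.35, SE; limma adjusted p = 0.0123); under quantile normalization the log2 fold change was 0.68, limma adjusted p = 0.104, which is not a call. Abundance was 10879.6, 3969.9 and 17675 in hbHep, against 75577, 49718 and 49720.4 in FAH liver. Every hbHep mouse lay below every sample of the other 3 groups. Ces1c was 9.12-fold lower in hbHep than in day 6 tumors (log2 -3.19 ± 0.37, limma adjusted p = 8.07e-06), 6.25-fold lower than in FAH liver (log2 -2.64 ± 0.40, limma adjusted p = 1.12e-04) and 3.71-fold lower than in YAP1 ON tumors (log2 -1.89 ± 0.37, limma adjusted p = 5.58e-04). Without hbHep mouse 2, the lowest, these log2 differences were -2.59, limma adjusted p = 5.07e-06, then -2.04, limma adjusted p = 7.97e-05, and -1.29, limma adjusted p = 0.00115. Day 6 tumors differed from FAH liver by a log2 fold change of 0.54 ± 0.37 (95% interval -0.25 to 1.34, limma adjusted p = 0.217) and YAP1 ON tumors by -0.75 ± 0.37 (95% interval -1.55 to 0.04, limma adjusted p = 0.0858). Neither is a call, but both turned on the choices made. Day 6 tumors were called higher than FAH liver with only these 2 groups in the model (0.55, limma adjusted p = 0.0397) and under quantile normalization (1.39, limma adjusted p = 0.00172), and YAP1 ON tumors were called lower with only 2 groups (-0.75, limma adjusted p = 0.0414), without hbHep mouse 2 (-0.75, limma adjusted p = 0.0115) and without hbHep mouse 3 (-0.76, limma adjusted p = 0.0415), with the sign turned under quantile normalization (0.71, limma adjusted p = 0.0638).

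Ces1b, the neighbor of Ces1c, was likewise higher at day 6, but unlike Ces1c it lay above YAP1 ON tumors in hbHep. It stood at 3507, 3992, 2705 and 3432 in day 6 tumors, against 634, 987, 893 and 914 in YAP1 ON tumors, with no overlap (log2 fold change 2.00 ± 0.23, limma adjusted p = 1.38e-05). The hbHep mice had 2096, 1200.0 and 3154, against 10109, 7974 and 9146 in FAH liver, again with no overlap (log2 -2.18 ± 0.27, limma adjusted p = 1.68e-05). hbHep were above YAP1 ON tumors by a log2 fold change of 1.24 ± 0.25 (limma adjusted p = 6.70e-04). Their difference from day 6 tumors, -0.76 ± 0.25 (limma adjusted p = 0.0219), was between groups that overlap; it was no call without hbHep mouse 2 (-0.39, limma adjusted p = 0.141), without day 6 tumor 2 (-0.68, limma adjusted p = 0.057) or with only these 2 groups in the model (-0.75, limma adjusted p = 0.0568).

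The promoter windows of Ces1b and Ces1c are shown because the pair share their longest run of letters while only Ces1b of the pair lay above YAP1 ON tumors in hbHep. For Ces1b, which has 2 entries, the one with the lower coordinates is shown. Both are RefSeq windows on the minus strand of GRCm38.p6, written 5′ to 3′ along the gene, of Ces1b at chr8:93079891-93080190 and of Ces1c at chr8:93131234-93131533. Capitals mark TTGCNNAA, a C/EBP-type site, searched on both strands; it was in the windows of 3 of the 7 members that have an entry (Ces1b, Ces1c and Ces2a) and in 10.8% of all 32544 promoter windows.
Ces1b: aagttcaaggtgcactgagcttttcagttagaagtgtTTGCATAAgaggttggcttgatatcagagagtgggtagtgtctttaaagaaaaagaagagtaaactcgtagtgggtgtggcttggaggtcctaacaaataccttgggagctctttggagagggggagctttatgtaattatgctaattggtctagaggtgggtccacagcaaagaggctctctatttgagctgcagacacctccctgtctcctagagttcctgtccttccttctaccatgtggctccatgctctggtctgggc
Ces1c: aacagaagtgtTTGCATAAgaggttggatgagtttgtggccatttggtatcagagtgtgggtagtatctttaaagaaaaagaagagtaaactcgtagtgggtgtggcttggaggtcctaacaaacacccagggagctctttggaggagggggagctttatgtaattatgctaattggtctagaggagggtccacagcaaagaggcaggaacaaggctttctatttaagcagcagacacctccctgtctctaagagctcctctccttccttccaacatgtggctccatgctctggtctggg

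Ces1d encodes triacylglycerol hydrolase, a lumenal enzyme that mobilizes stored triglyceride for very low density lipoprotein. It was 3234, 3384, 2434 and 3749 in day 6 tumors, against 496, 535, 751 and 559.6 in YAP1 ON tumors (log2 fold change 2.45 ± 0.20, limma adjusted p = 4.71e-07). In hbHep it was 1074, 1298 and 2057, against 10912, 7539 and 8915 in FAH liver (log2 -2.67 ± 0.23, limma adjusted p = 5.88e-07). The 4 groups did not overlap, and hbHep lay between the 2 tumor groups: lower than day 6 tumors (log2 -1.15 ± 0.22, limma adjusted p = 5.12e-04) and higher than YAP1 ON tumors (log2 1.30 ± 0.22, limma adjusted p = 1.20e-04).

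Ces1e, the gene of the lumenal protein egasyn, which anchors beta-glucuronidase in the endoplasmic reticulum, was 938, 1044, 698 and 834 in day 6 tumors, against 155, 106, 168 and 145 in YAP1 ON tumors (log2 fold change 2.61 ± 0.18, limma adjusted p = 1.17e-07). The hbHep mice had 1074, 918 and 1523, against 13959, 10559 and 10824 in FAH liver, a 10.2-fold lower level (log2 -3.35 ± 0.21, limma adjusted p = 1.90e-08). hbHep overlapped day 6 tumors and the difference was no call (log2 0.40 ± 0.19, 95% interval -0.02 to 0.81, limma adjusted p = 0.108). Without hbHep mouse 2 it was a call (0.56, limma adjusted p = 0.043), and so it was with the second technical library of each hbHep mouse (0.61, limma adjusted p = 0.0218).

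Ces1f, a further hepatic Ces1 enzyme, was higher in day 6 tumors than in YAP1 ON tumors, and higher in hbHep than in day 6 tumors. Its abundance was 704, 937, 497 and 746 in day 6 tumors, against 196, 86.4, 198 and 156 in YAP1 ON tumors (log2 fold change 2.21 ± 0.24, limma adjusted p = 8.39e-06). It was 1847, 1935 and 2434 in hbHep, against 6476, 4488 and 4749.7 in FAH liver (log2 -1.33 ± 0.28, limma adjusted p = 0.00174). The 4 groups did not overlap, in the order YAP1 ON tumors, day 6 tumors, hbHep and FAH liver, and hbHep exceeded day 6 tumors by a log2 fold change of 1.55 ± 0.26 (limma adjusted p = 2.33e-04).

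Ces1g, a hepatic enzyme known for its part in triglyceride and lipoprotein handling in mice, was 2375, 2864, 1749.5 and 2386 in day 6 tumors, against 1066, 644, 1445 and 1215 in YAP1 ON tumors. The groups did not overlap (log2 fold change 1.14 ± 0.32, limma adjusted p = 0.0178), but the call was lost without day 6 tumor 2 (1.03, limma adjusted p = 0.0564) or YAP1 ON tumor 2 (0.90, limma adjusted p = 0.0641). In hbHep it was 2530.3, 9216 and 3900.2, against 12048, 8194 and 10365 in FAH liver. Mouse 2, the lowest of the hbHep mice for several other members, was the highest here and lay within the range of FAH liver. The log2 difference was -1.16 ± 0.37 (limma adjusted p = 0.0233); it was no call without hbHep mouse 1 (-0.75, limma adjusted p = 0.119), hbHep mouse 3 (-1.06, limma adjusted p = 0.0702), FAH liver 1 (-1.04, limma adjusted p = 0.083) or FAH liver 3 (-1.15, limma adjusted p = 0.0539), nor with only 2 groups (-1.14, limma adjusted p = 0.0604) or under quantile normalization (-0.69, limma adjusted p = 0.203). The rise over day 6 tumors (log2 0.96 ± 0.35, limma adjusted p = 0.0345) rested on overlapping groups. It was no call without hbHep mouse 2 (0.45, limma adjusted p = 0.223), without day 6 tumor 1 (0.98, limma adjusted p = 0.0575), 3 (0.83, limma adjusted p = 0.0901) or 4 (0.98, limma adjusted p = 0.0559), with only 2 groups (0.97, limma adjusted p = 0.058) or under quantile normalization (0.76, limma adjusted p = 0.113).

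Ces2c was the member that lay above FAH liver in hbHep; the other 9 lay below it. Ces2 enzymes hydrolyze esters with a small acyl group and a large alcohol group, and mouse Ces2c is an acylcarnitine hydrolase. Its abundance was 649, 682, 586 and 803 in day 6 tumors, against 216, 79.9, 213 and 146 in YAP1 ON tumors, with no overlap (log2 fold change 2.14 ± 0.24, limma adjusted p = 1.19e-05). In hbHep it was 13647, 13877 and 12199, against 8877, 6673 and 6032 in FAH liver. All 3 hbHep mice lay above all 3 livers, by 1.86-fold (log2 0.90 ± 0.28, limma adjusted p = 0.0211). The call was lost without hbHep mouse 1 (0.87, limma adjusted p = 0.0524), hbHep mouse 2 (0.86, limma adjusted p = 0.053), FAH liver 2 (0.85, limma adjusted p = 0.0575) or FAH liver 3 (0.78, limma adjusted p = 0.0743). The rise over the tumors was larger: hbHep had 19.5-fold the level of day 6 tumors (log2 4.29 ± 0.26, limma adjusted p = 8.67e-09) and 86.2-fold the level of YAP1 ON tumors (log2 6.43 ± 0.26, limma adjusted p = 8.71e-11). Among the 10 members this was the gene with the smallest spread between the 3 hbHep mice, with a highest value 1.14 times the lowest.

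Ces2a, its close relative, was ordered otherwise across the groups. It was 3908, 4477, 3612 and 4390.4 in day 6 tumors, against 831, 1383, 1451 and 1175 in YAP1 ON tumors (log2 fold change 1.79 ± 0.23, limma adjusted p = 4.18e-05), and 2738, 1713 and 4112 in hbHep, against 15171, 10591 and 10531 in FAH liver (log2 -2.15 ± 0.27, limma adjusted p = 1.96e-05). Neither pair overlapped. hbHep overlapped day 6 tumors (log2 -0.61 ± 0.25, 95% interval -1.14 to -0.07, limma adjusted p = 0.0602), and were called lower without hbHep mouse 3 (-0.91, limma adjusted p = 0.0072), without YAP1 ON tumor 1 (-0.61, limma adjusted p = 0.0439) and under quantile normalization (-0.86, limma adjusted p = 0.00372). The mean of hbHep for Ces2a was 2854 ± 1204 (SD, n = 3), against 12098 ± 2662 in FAH liver (SD, n = 3); for Ces2c the means were 13241 ± 909.9 in hbHep and 7194 ± 1492 in FAH liver (SD, n = 3 each). The order of the 2 genes was thus Ces2c over Ces2a in hbHep and Ces2a over Ces2c in FAH liver, in every sample of both groups.

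The promoter windows of these 2 genes are shown because they sit in 1 cluster and took opposite places in hbHep relative to FAH liver. Both lie on the plus strand of GRCm38.p6 (RefSeq), Ces2a at chr8:104733753-104734052 and Ces2c at chr8:104846818-104847117. Capitals mark AGGTCA (a nuclear receptor half-site, in 16.2% of all promoter windows), CAAAGT (an HNF4A-type core, in 14.4%) and TTGCNNAA, each searched on both strands; further motifs searched were GTTAAT (an HNF1 half-site, in 7.13%) and TATAAA (the TATA box, in 13.6%). The Ces2a window held the first 3 of these and the Ces2c window none of the 5 in these letters.
Ces2a: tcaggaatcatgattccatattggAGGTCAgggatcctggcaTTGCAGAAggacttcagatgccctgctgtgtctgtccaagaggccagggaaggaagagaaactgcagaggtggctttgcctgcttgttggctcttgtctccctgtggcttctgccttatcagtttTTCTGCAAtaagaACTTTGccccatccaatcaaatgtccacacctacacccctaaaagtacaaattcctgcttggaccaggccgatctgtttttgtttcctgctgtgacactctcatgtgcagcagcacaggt
Ces2c: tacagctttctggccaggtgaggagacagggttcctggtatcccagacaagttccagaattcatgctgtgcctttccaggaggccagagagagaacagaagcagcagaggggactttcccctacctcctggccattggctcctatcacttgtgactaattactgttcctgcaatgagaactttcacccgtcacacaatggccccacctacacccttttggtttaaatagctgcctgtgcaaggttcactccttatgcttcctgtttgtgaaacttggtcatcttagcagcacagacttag

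Ces3a and Ces3b, a pair of liver carboxylesterases of the Ces3 branch, had the largest rises at day 6. Ces3b was 1615, 2340.0, 1171 and 1547 in day 6 tumors, against 31.9, 15.4, 45.1 and 42.9 in YAP1 ON tumors, a 50.1-fold rise (log2 fold change 5.65 ± 0.65, limma adjusted p = 1.30e-05). Ces3a was 3403, 4409.9, 2404 and 3499 in day 6 tumors, against 166, 75.1, 230.2 and 218 in YAP1 ON tumors, a 21-fold rise (log2 4.39 ± 0.87, limma adjusted p = 0.00156). Both genes were separated in all 8 tumors. Even so, day 6 tumors stood below FAH liver for Ces3b (log2 -3.45 ± 0.70, limma adjusted p = 5.63e-04) and for Ces3a (log2 -2.97 ± 0.94, limma adjusted p = 0.0122; no call under quantile normalization, -2.16, limma adjusted p = 0.0572). YAP1 ON tumors were 546-fold below FAH liver for Ces3b and 165-fold below it for Ces3a, the 2 widest gaps of the family.

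In hbHep the Ces3 genes differed between mice. Ces3a was 11602, 291 and 15852 in hbHep mice 1, 2 and 3, against 30879, 26701 and 21916 in FAH liver. Ces3b was 1461, 101 and 1751 in hbHep, against 21760.4, 16760.2 and 15075 in FAH liver. Mouse 2 had 1.1% of the mean FAH liver level of Ces3a, while mouse 1 had 43.8% and mouse 3 had 59.8%; for Ces3b the shares were 0.564% in mouse 2, 8.18% in mouse 1 and 9.8% in mouse 3. Both technical libraries of mouse 2 gave the low values, 301 and 281 for Ces3a and 93.9 and 107 for Ces3b. Over all 3 mice, hbHep were below FAH liver for Ces3b (log2 -4.79 ± 0.75, limma adjusted p = 1.57e-04) and for Ces3a (log2 -2.80 ± 1.00, limma adjusted p = 0.0397).

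These hbHep values moved with single samples. Without mouse 2 the log2 difference of hbHep from FAH liver was -0.95, limma adjusted p = 0.0665 for Ces3a and -3.46, limma adjusted p = 5.55e-06 for Ces3b. Without mouse 1 it was -3.61, limma adjusted p = 0.0172 for Ces3a and -5.39, limma adjusted p = 1.55e-04 for Ces3b, and without mouse 3 it was -3.84, limma adjusted p = 0.00794 for Ces3a and -5.52, limma adjusted p = 6.72e-05 for Ces3b. Ces3a was also no call without FAH liver 1 (-2.68, limma adjusted p = 0.102), 2 (-2.79, limma adjusted p = 0.0769) or 3 (-2.93, limma adjusted p = 0.065), with only 2 groups (-2.77, limma adjusted p = 0.136), under quantile normalization (-2.25, limma adjusted p = 0.093), with no filter on low values (-2.80, limma adjusted p = 0.084) or without a trend in the model (-2.80, limma adjusted p = 0.0655). Against YAP1 ON tumors, hbHep were higher for Ces3a (log2 4.57 ± 0.94, limma adjusted p = 7.60e-04) and Ces3b (log2 4.30 ± 0.70, limma adjusted p = 1.03e-04). Leaving out mouse 2 gave 6.41, limma adjusted p = 5.65e-09 for Ces3a and 5.63, limma adjusted p = 1.42e-08 for Ces3b; leaving out mouse 1 gave 3.75, limma adjusted p = 0.00622 and 3.71, limma adjusted p = 9.32e-04 for the same genes, and leaving out mouse 3 gave 3.53, limma adjusted p = 0.00596 and 3.58, limma adjusted p = 8.35e-04. The differences of hbHep from day 6 tumors were no calls (Ces3a log2 0.17 ± 0.94, 95% interval -1.83 to 2.17, limma adjusted p = 0.895; Ces3b log2 -1.34 ± 0.70, 95% interval -2.84 to 0.15, limma adjusted p = 0.131). For Ces3a that difference became a call without mouse 2 (2.02, limma adjusted p = 4.61e-04) and turned in sign without mouse 1 (-0.64, limma adjusted p = 0.644) or mouse 3 (-0.86, limma adjusted p = 0.482); for Ces3b it became a call without mouse 3 (-2.07, limma adjusted p = 0.0314).

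The promoter window of Ces3b, the member with the largest rise at day 6, is shown from chr8:105083505-105083804 (plus strand, RefSeq, GRCm38.p6). Capitals mark GTTAAT, which starts 56 bases before the start site, and TATAAA, which starts 30 bases before it. Of the 7 members with an entry, Ces3b alone held GTTAAT, and Ces1g was the other one with TATAAA. Ces1d, Ces1f and Ces3a have no entry here.
Ces3b: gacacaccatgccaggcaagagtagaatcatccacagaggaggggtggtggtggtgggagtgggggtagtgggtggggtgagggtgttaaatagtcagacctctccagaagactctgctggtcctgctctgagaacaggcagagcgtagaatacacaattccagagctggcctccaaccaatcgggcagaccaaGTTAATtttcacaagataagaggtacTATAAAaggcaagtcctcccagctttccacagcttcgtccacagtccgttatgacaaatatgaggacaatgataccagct

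**Figure D2:**
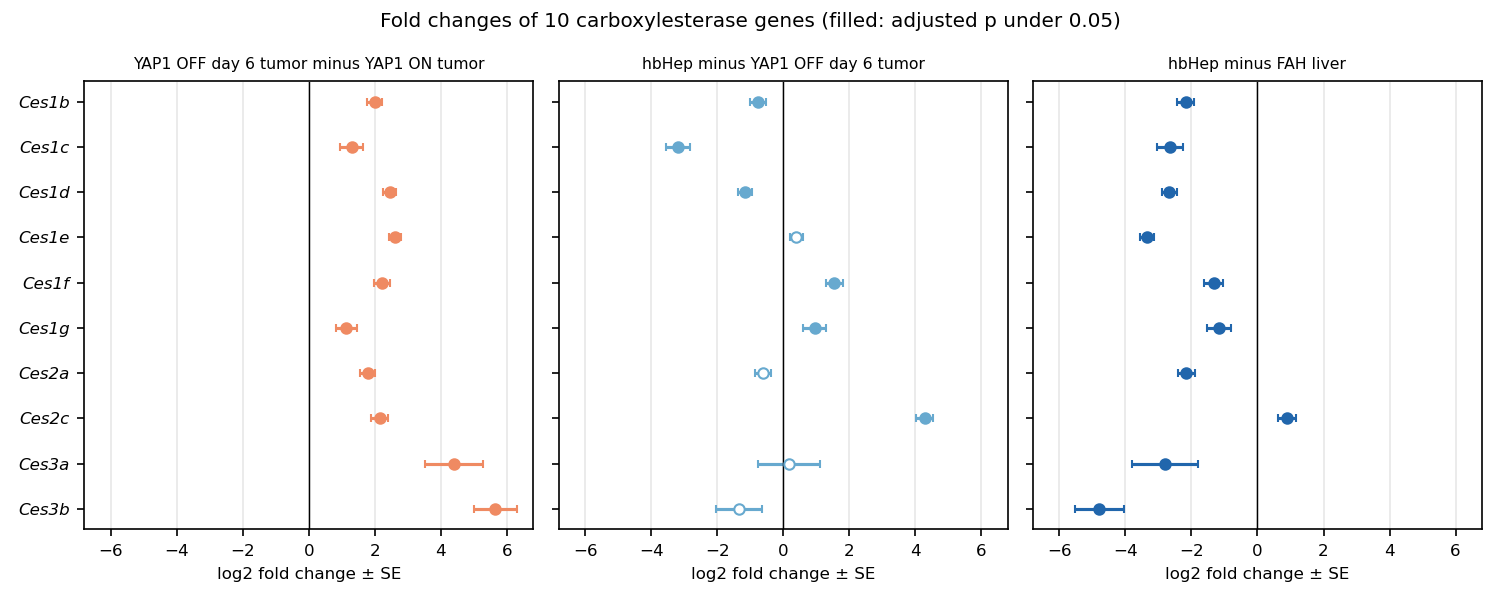
Log2 fold changes with their standard errors (x axis) of the 10 genes in day 6 tumors over YAP1 ON tumors, hbHep over day 6 tumors and hbHep over FAH liver; filled points have a limma adjusted p under 0.05. All points of the first comparison lie right of 0, the second has points on both sides, and Ces2c alone lies right of 0 in the third.

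The hbHep mice can be set against FAH liver 1 at a time. Mouse 2 was lowest of the 3 mice for Ces1b, Ces1c, Ces1e, Ces2a, Ces3a and Ces3b, and highest for Ces1g and Ces2c. It had 6.8% of the mean FAH liver level of Ces1c, against 18.6% in mouse 1 and 30.3% in mouse 3. Its Ces1g stood at 90.3% of the FAH liver mean, against 24.8% in mouse 1 and 38.2% in mouse 3. Ces2c was 189.7%, 193% and 169.6% of the FAH liver mean in mice 1, 2 and 3. Over the 10 genes and 3 mice, the larger technical library was at most 1.78 times the smaller, for Ces3b in mouse 3. Mouse 2 also had the lowest Serpina1c of the hbHep mice, 1119 against 5671 in mouse 1 and 12261 in mouse 3. It had the lowest Cebpa, 7223 against 13749 and 17208. Cps1, like Serpina1c a hepatocyte marker, went the other way, with 69623 in mouse 2 against 35897 in mouse 1 and 60519 in mouse 3. The hepatocyte markers of mouse 2 summed to 847726, against 1113400 in mouse 1 and 1217710 in mouse 3. Its macrophage markers summed to 10416, against 24598 and 8931. The part of these values in the low Ces3a and Ces3b of mouse 2 was not tested.

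**Figure D3:**
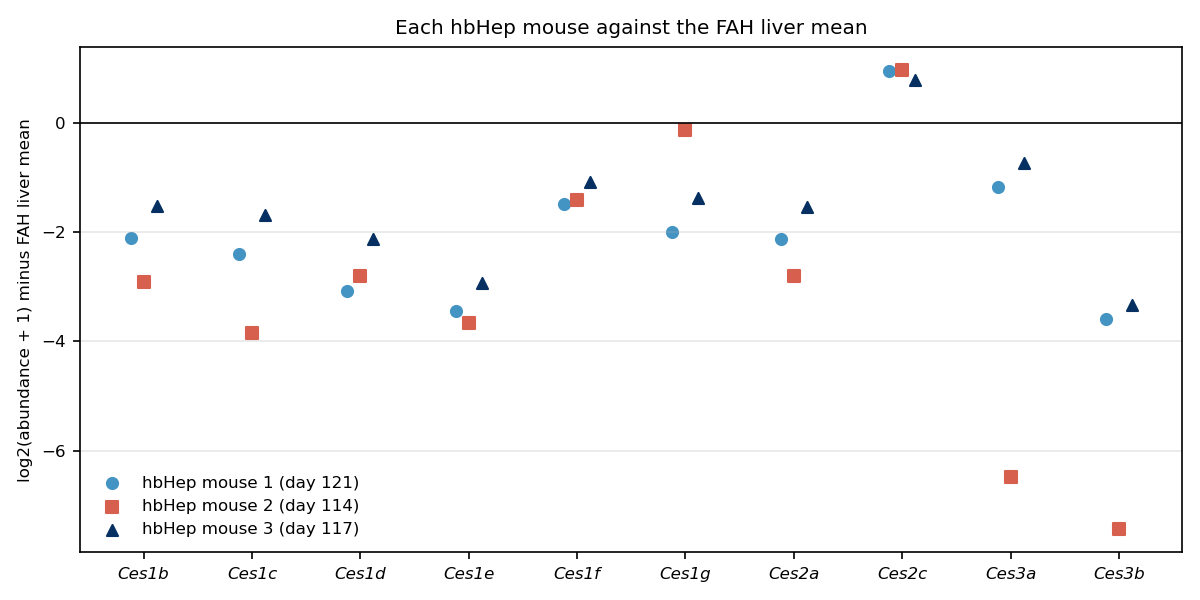
Difference of each hbHep mouse from the mean of the 3 FAH livers, on the scale of log2(abundance + 1), for the 10 genes; 0 is the FAH liver mean. Ces2c lies above 0 in all 3 mice, and mouse 2 lies at -6.49 for Ces3a and -7.44 for Ces3b.

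The make-up of the family differed between groups. Ces1c made up 88.5% ± 1.52 of the summed abundance of the 10 genes in YAP1 ON tumors, 80.5% ± 1.3 in day 6 tumors, 20.4% ± 8.08 in hbHep and 34.6% ± 1.85 in FAH liver (SD, n = 4, 4, 3 and 3). Ces2c made up 0.445% ± 0.234 in YAP1 ON tumors, 0.655% ± 0.0709 in day 6 tumors, 29% ± 10.7 in hbHep and 4.29% ± 0.189 in FAH liver. Ces1c therefore held most of the signal in the tumors, while no member held a majority in hbHep or FAH liver. In hbHep the largest share was Ces2c in mice 1 and 2 and Ces1c in mouse 3. The summed abundance of Ces3a and Ces3b was 206 ± 84.1 in YAP1 ON tumors, 5097 ± 1298 in day 6 tumors, 10353 ± 8919.7 in hbHep and 44364 ± 7863 in FAH liver (SD).

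The sum of all 10 genes was 38823 ± 7022 in YAP1 ON tumors, 104093 ± 11030.1 in day 6 tumors, 49375 ± 15073 in hbHep and 167413 ± 33229 in FAH liver (SD, n = 4, 4, 3 and 3). As a share of the signal of all genes this was 0.221% ± 0.0381 in YAP1 ON tumors, 0.488% ± 0.0482 in day 6 tumors, 0.207% ± 0.0537 in hbHep and 0.478% ± 0.0394 in FAH liver. The day 6 sum was mostly Ces1c, and the Ces2 sum was 16095 ± 439 in hbHep and 19292 ± 4133 in FAH liver (SD). No test was made on sums or shares.

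**Figure D4:**
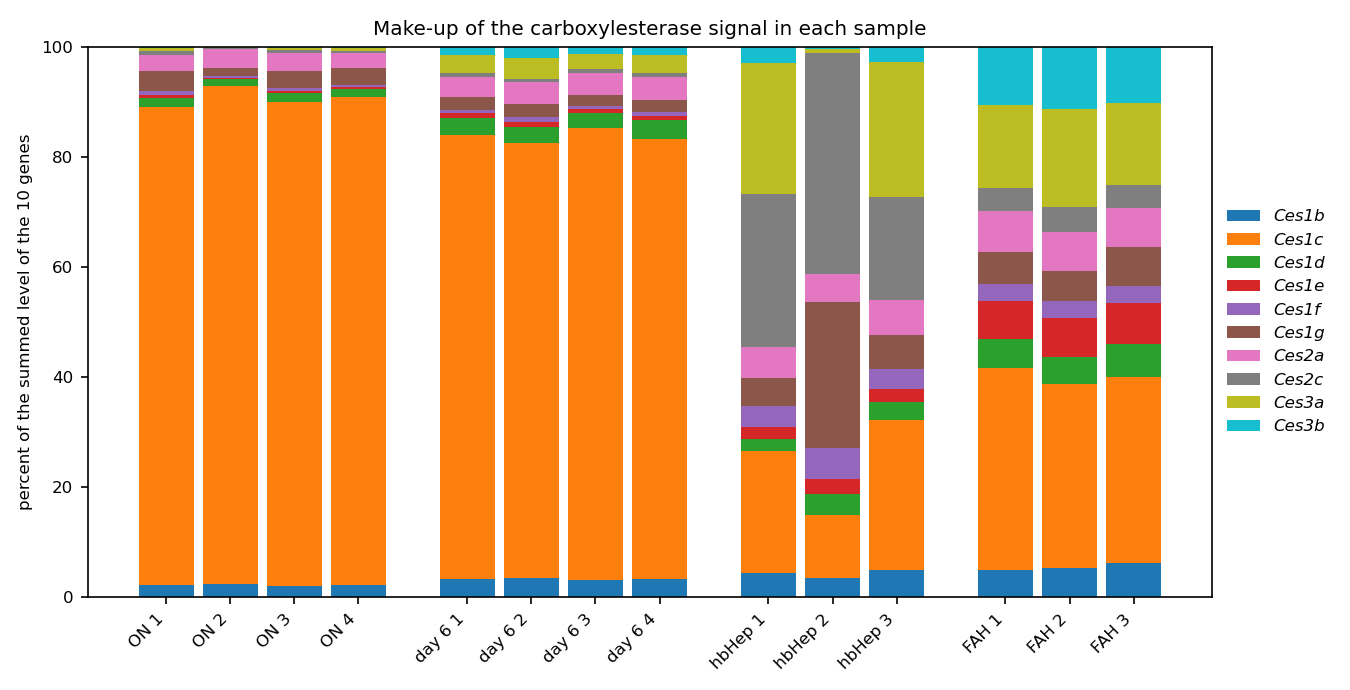
Share of each gene in the summed abundance of the 10 (percent, stacked bars) in each of the 14 samples. Ces1c fills 79.1 to 90.5% of every tumor bar, and Ces2c takes 18.9 to 40.2% in the hbHep mice.

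The other 10 carboxylesterase rows were mostly low, and 8 passed the filter. Ces2e, a further Ces2 gene of the same cluster, was the most abundant of them in every group. It was 2502, 2535, 1954 and 2424 in day 6 tumors, against 1398, 1947, 2206 and 1686 in YAP1 ON tumors, a difference that was no call (log2 fold change 0.39 ± 0.17 (SE), limma adjusted p = 0.103). It was 5768, 4429.6 and 6868 in hbHep, against 14612, 11501 and 11056 in FAH liver (log2 -1.13 ± 0.19 (SE), limma adjusted p = 2.94e-04), so the sign of Ces2c over FAH liver was not shared by Ces2e. hbHep exceeded day 6 tumors for Ces2e (log2 1.26 ± 0.18 (SE), limma adjusted p = 5.13e-05). Ces2g was 1626 ± 81.2 in day 6 tumors and 829 ± 162 in YAP1 ON tumors (SD, n = 4 each; log2 0.99 ± 0.14 (SE), limma adjusted p = 6.35e-05), and 1565 ± 157 in hbHep and 1402 ± 121 in FAH liver (SD, n = 3 each; log2 0.16 ± 0.16 (SE), limma adjusted p = 0.465). Of the 8 tested, 3 rose and 0 fell in day 6 tumors over YAP1 ON tumors (median log2 0.56; background 12.8% higher, 10.8% lower). In hbHep, 4 were higher and 1 lower than in YAP1 ON tumors (median 0.93; background 28.8% and 26.3%), 3 higher and 0 lower than in day 6 tumors (median 0.84; background 24.1% and 21.7%), and 0 higher and 3 lower than in FAH liver (median -0.80; background 19.9% and 17.1%). Against FAH liver, 0 were higher and 6 lower in day 6 tumors (median -1.95; background 31.6% and 31%), and the counts were the same in YAP1 ON tumors (median -2.26; background 34.4% and 33.5%).

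Genes of neighboring functions were counted in lists chosen with earlier results of these data known. Beside each count stands the same background: at day 6 over YAP1 ON tumors 12.8% of all genes were called higher and 10.8% lower, and in hbHep over FAH liver 19.9% higher and 17.1% lower. Of 22 tested genes for other ester and lipid hydrolases of liver, 10 rose and 3 fell in day 6 tumors over YAP1 ON tumors (median log2 0.40). In hbHep, 6 were higher and 5 lower than in FAH liver (median -0.16), and the shares of this second comparison were near its background. Hepatic lipase, Lipc, rose at day 6 (log2 2.35 ± 0.30 (SE), limma adjusted p = 3.70e-05). Epoxide hydrolase Ephx1 fell at day 6 (log2 -0.64 ± 0.17 (SE), limma adjusted p = 0.0118). Ephx1 was higher in hbHep than in day 6 tumors (log2 2.90 ± 0.18 (SE), limma adjusted p = 1.09e-08). Its difference between hbHep and FAH liver was no call (log2 -0.19 ± 0.19 (SE), limma adjusted p = 0.481). Of 19 genes for triglyceride storage and lipoprotein secretion, 9 rose and 1, Apoa4, fell at day 6 (median 0.37), while 2 were higher and 7 lower in hbHep than in FAH liver (median -0.36). Of 17 genes for regulators of drug metabolism, 11 rose and 0 fell at day 6 (median 0.59), and 3 were higher and 6 lower in hbHep than in FAH liver (median -0.41).

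Among these regulators, the constitutive androstane receptor Nr1i3 moved most over YAP1 ON tumors in hbHep. It was 584, 842, 433 and 788 in day 6 tumors, against 289.5, 108, 271 and 213 in YAP1 ON tumors (log2 1.63 ± 0.28 (SE), limma adjusted p = 4.82e-04), and 1705, 1779 and 2372 in hbHep, against 8974, 5798 and 7423 in FAH liver (log2 -1.91 ± 0.32 (SE), limma adjusted p = 2.79e-04). The 4 groups did not overlap. Of the 12 hepatocyte markers, 7 rose and 0 fell at day 6 (median 0.99), against 12.8% and 10.8% of all genes, and 0 were higher and 7 lower in hbHep than in FAH liver (median -0.87), against 19.9% and 17.1% of all genes.

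Markers of other cells moved with the same comparisons. The 7 cholangiocyte markers summed to 3403 to 8523 in day 6 tumors, against 29709 to 39366 in YAP1 ON tumors, and to 1647 to 1850 in hbHep, against 1137 to 1231 in FAH liver. The 9 macrophage markers summed to 13241 to 17515 in day 6 tumors, against 21022 to 32705 in YAP1 ON tumors, and to 8931 to 24598 in hbHep, against 4433 to 7966 in FAH liver. The 8 stellate cell and fibroblast markers summed to 8005 to 12323 in day 6 tumors, against 6384 to 11738 in YAP1 ON tumors, and to 3455 to 7499 in hbHep, against 4617 to 7142 in FAH liver. The 8 markers of T, NK and B cells had sums of 510.2 to 632 in day 6 tumors, against 252 to 364 in YAP1 ON tumors, and of 201 to 262 in hbHep, against 89.7 to 118 in FAH liver. Of the 7 that were tested, 3 rose and 0 fell at day 6 over YAP1 ON tumors (background 12.8% higher, 10.8% lower). This list thus went the same way as the family there. In hbHep over day 6 tumors, 0 were higher and 7 lower (background 24.1% higher, 21.7% lower). The 7 endothelial markers had sums of 5920 to 9025 in day 6 tumors, against 5364 to 6920 in YAP1 ON tumors. They summed to 3830 to 7851 in hbHep, against 7627 to 8112 in FAH liver. At day 6, 1 of them rose, near the background share, and 0 fell. The other 3 lists had calls only downward at day 6, although the sums of the stellate cell and fibroblast markers overlapped between the tumor groups and were not lower at day 6. Among cholangiocyte markers 0 rose and 5 fell, among stellate cell and fibroblast markers 0 and 3, and among macrophage markers 0 and 2. No gene of these 5 lists was at 0 throughout a group. The part of other cells in the carboxylesterase values was not tested. Carboxylesterases are also made in fat, gut and kidney. The 6 adipocyte markers summed to 945 to 1628 in day 6 tumors, against 1325 to 1818 in YAP1 ON tumors, and to 419 to 515 in hbHep, against 296 to 451 in FAH liver, with Adipoq and Lep at 0 in hbHep and day 6 tumors. The 6 intestinal markers, which include Apoa4 that liver also makes, summed to 1070 to 1869 in day 6 tumors, against 2020 to 8533 in YAP1 ON tumors, and to 8506 to 36495 in hbHep, against 15945 to 21325 in FAH liver, with Cdx1 at 0 in hbHep and both tumor groups. The 5 kidney tubule markers summed to at most 4.11 in hbHep and the tumors and 25.4 in FAH liver.

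For each member, the 3 genes outside the family with the highest Pearson correlation of log2(abundance + 1) over the 14 samples were listed, as a description; the samples fall into 4 groups, so such a value also carries the differences between group means. Ces3b was closest to the major urinary protein genes Mup10 (r = 0.988), Mup14 and Mup22, whose own values are uncertain among near-identical copies. Ces1e was closest to Mup1 (r = 0.995), Pecr and Kyat1. Ces2c was closest to the cytochrome Cyp2a5 (r = 0.991), which was 106721, 160449 and 116038 in hbHep, against 136627, 78260.3 and 107586 in FAH liver, and 6221 ± 1895 in day 6 tumors, against 1841 ± 829 in YAP1 ON tumors (SD, n = 4 each). Ces1d was closest to the bile acid transporter Slc10a1 (r = 0.986), Ces1c to Fam47e (r = 0.976), St6gal1 and Serpina1d, Ces1b to Nlrp6 (r = 0.992) and Ces1f to the glutathione transferase Gstt3 (r = 0.993). For Ces1g the closest was R3hdml (r = 0.973), for Ces2a the glyoxalase Glo1 (r = 0.988) and for Ces3a the arrestin-like gene Arrdc3 (r = 0.979).

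Open chromatin was mapped by Omni-ATAC, a method that reads where a transposase can reach the DNA, in 1 library each of YAP1 on, YAP1 off at days 14, 33 and 64, and liver labeled WT, so no test was possible. The deposited lists differ in kind: intervals averaged 23.7 bases in the YAP1 on list and 66.4 to 76.6 bases in the other 4, and the bases covered in all were 19695362 in the YAP1 on list, 71650433, 57525205 and 55754585 at days 14, 33 and 64, and 36681593 in liver. Each library is therefore read against its own background, and differences between libraries are not read as changes. Of the 7 members with a start site, all had an interval within 1 kb of it in all 5 libraries, where 55.2 to 57.3% of 32851 start sites did. On the start base itself, an interval lay over 3 of the 7 in the YAP1 on library (Ces1b, Ces1e and Ces3b), where 12.8% of all start sites had one. At day 14 it lay over 5 (Ces1b, Ces1c, Ces1e, Ces1g and Ces2a, not Ces2c or Ces3b; 35.7% of all). At day 33 it lay over 6, all but Ces1g (37.1% of all), at day 64 over all 7 (36.1% of all) and in liver over 6, all but Ces1g (33.4% of all).

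Within each library, genes were also ranked by the share of the gene body that intervals cover, a measure added after the data were seen. Ces3a ranked high: 56.6% of its body was covered at day 14, 59.4% at day 33, 78.2% at day 64 and 23.6% in liver, at the 96.4, 98.1, 99.8 and 94.9 percentiles of 21887 genes. In the YAP1 on library, whose lower quartile of genes was also at 0% and whose median gene had 0.942% covered, no interval fell in Ces3a. In that library Ces3b had 0.392%, Ces1c 2.80% and Ces2c 1.19% covered, at the 37.3, 73.1 and 54.7 percentiles. The median gene had 3.09%, 2.47% and 2.46% covered at days 14, 33 and 64 and 1.70% in liver. Ces3b had 63.9% at day 14, 18.6% at day 33, 8.33% at day 64 and 12% in liver, at the 97.7, 88.1, 75.7 and 88.3 percentiles of these libraries. Ces1c had 28.8%, 17.5%, 31.2% and 5.28% in the same order. Ces2c had 10.5%, 10.7%, 15.9% and 6.63%, and ranked at the 86.6 percentile at day 64 and the 78.8 percentile in liver. Ces1e lay near the middle of all genes within each library, between the 45.4 and 55.7 percentiles.

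**Figure D5:**
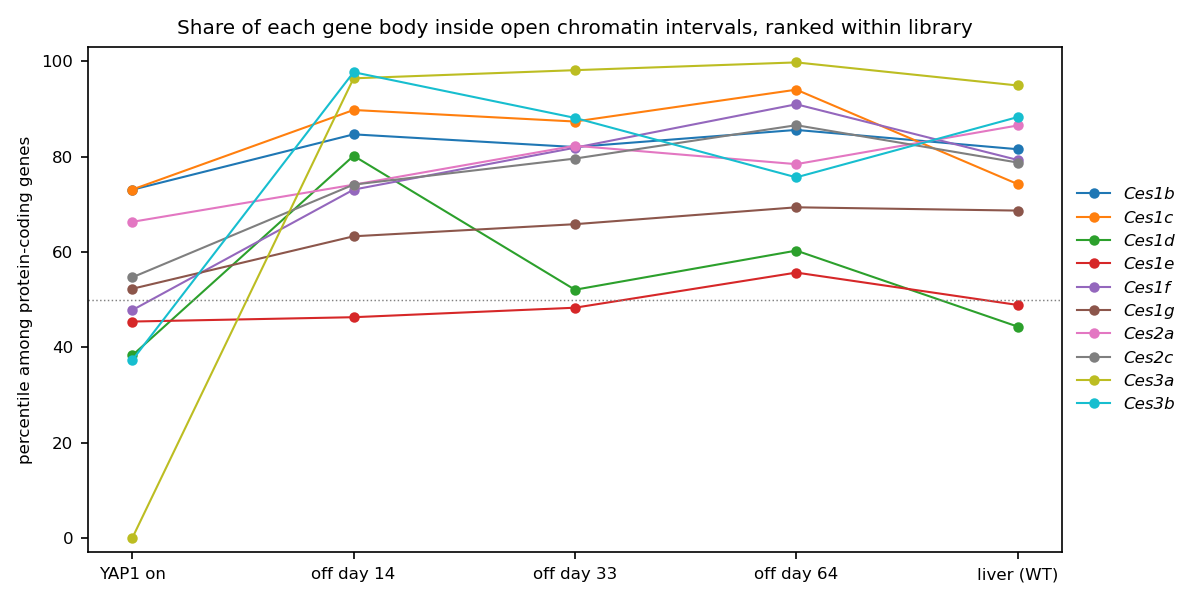
Percentile of each gene among 21887 genes by the share of its body inside open chromatin intervals (y axis), in 1 library each of YAP1 on, YAP1 off at days 14, 33 and 64, and liver. Points are read within a library, since the lists differ in interval width and covered length: Ces3a lies above the 94 percentile at days 14, 33 and 64 and in liver, and Ces1e near the middle.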

How the data were processed

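The authors deposited RNA as a signal per gene, taken here to be reads per base of transcript after sleuth's scaling. Per the submitters' processing notes, the tools were kallisto 0.45.0, sleuth and bcl2fastq, and the build was GRCm38.p6. After rescaling by an estimated step per library, low values were compared with the lowest nonzero value of the same gene. They were whole multiples of it (tolerance 0.02) in 41.3% of 53095 cases. Whole reads were not recovered in this way, and counts were not modeled. The summed signal per library, in units of 1e+06, was 16.0 to 42.1. ATAC interval positions were deposited on mm10, made with cutadapt, BWA, SAMtools and Picard, per the same notes; the interval caller is not given in the sources used here, and no score was used.

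Each hbHep mouse entered as the mean of its 2 technical libraries (17 libraries, 14 samples). Median-of-ratios factors (0.963 to 1.10) put samples on 1 scale. Genes with abundance of at least 10 in at least 3 samples were tested on log2(abundance + 1), which understates changes of low genes, with limma 3.58.1 (lmFit, eBayes with trend) in R 4.3.3, in 1 model of 4 groups, with Benjamini-Hochberg adjustment over all genes. Errors on log2 values are standard errors, and 95% intervals use limma's moderated degrees of freedom, unadjusted. The table gave 35912 of 36555 genes a symbol. All members are described. Other genes are those with the largest called changes of a list, or the 3 most correlated with a member. Exceptions, named after their values were seen, were Ces2e over YAP1 ON tumors, Ces2g over FAH liver, Alb, Apoa1, Serpina1c, Cebpa, Cps1, Ces1a, Ces1h and Ces5a. Ephx1 at day 6 over YAP1 ON tumors and in hbHep over FAH liver was also such an exception. Members and lists were chosen with earlier results of these data known. Alternatives were another pseudocount, filter, scaling, model or technical library, a replicate block and leaving out each sample. The model was also run on simulated data with independent samples and 1 spread per gene for all groups. Tumors of 1 mouse and groups of differing spread were not simulated, so that run does not bear on them.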

Additional observations from a re-analysis of the deposited data

How the results depend on the processing

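Over 60 combinations of member and comparison and 10 other settings, 576 of 600 values kept their direction and side of the threshold, 16 lost a call, 6 gained one and 2 turned; leaving out each sample in turn, 811 of 840 did, 20 lost a call, 7 gained one and 2 turned. The turned values were Ces1c in YAP1 ON tumors over FAH liver under quantile normalization (0.71) and Ces3a in hbHep over day 6 tumors under quantile normalization (-0.088), without hbHep mouse 1 (-0.64) and without hbHep mouse 3 (-0.86); without hbHep mouse 2 the last was 2.02. With 1 sample left out, members lower in hbHep than in day 6 tumors numbered 2 to 5 (5 without hbHep mouse 3) and members higher in hbHep than in FAH liver 0 to 1. Members higher in day 6 tumors than in FAH liver numbered 1, Ces1c, under quantile normalization and with only these 2 groups in the model, against 0. In hbHep over FAH liver, 6628 of all genes were called, and 4340 with only these 2 groups. With the interval required on the start base, the YAP1 on library had 3 members in place of 7. Except where the setting itself has fewer samples, the cause was not tested.

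The tumors and the hbHep and liver mice carry replicate numbers, but same-numbered samples did not deviate together (correlations -0.23 to 0.19), so the numbers do not pair them. With the replicate number as a block, 10 members were higher in day 6 tumors than in YAP1 ON tumors, as without it, and 2 were higher and 2 lower in hbHep than in day 6 tumors; Ces1b (-0.74, limma adjusted p = 0.0503) and Ces1g (1.01, limma adjusted p = 0.0559) were the 2 not called.

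Groups of 3 or 4 samples, tumors from 1 mouse per group, estimated reads divided among similar genes and 1 ATAC library per condition limit these values. Depth is not known as counts, so no counting interval is given.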

Other observations

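The low carboxylesterase rows gave a few values outside the comparisons above. Ces2b, a further Ces2 gene, was 112, 51.9 and 74.5 in hbHep, against 509, 345 and 122 in FAH liver, so the 3 livers differed widely among themselves, and the hbHep mice lay below all of them (log2 fold change -1.86 ± 0.39 (SE), limma adjusted p = 0.00177). Ces2h was 58.5, 28.1 and 59.3 in hbHep, against 10.8, 13.1, 14.5 and 10.1 in day 6 tumors (log2 1.86 ± 0.35 (SE), limma adjusted p = 5.40e-04). Ces1a was 24.8 in YAP1 ON tumor 1 and at most 1.55 in the other YAP1 ON tumors. Ces5a and Ces1h were at most 11.8 and 7.35 in any sample and did not pass the filter on low values.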
